A study of Mus musculus with 12 samples.

Results

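The acute phase proteins are plasma proteins whose liver output changes during inflammation. The 10 mouse genes described here are the serum amyloid A genes Saa1, Saa2 and Saa3, the orosomucoid genes Orm1 and Orm2, haptoglobin (Hp), lipocalin 2 (Lcn2), the pentraxins C-reactive protein (Crp) and serum amyloid P component (Apcs), and inter-alpha-trypsin inhibitor heavy chain 4 (Itih4). They were taken by gene symbol from the array platform's annotation, and the 10 genes, of 12393 with a symbol of their own, were measured by 11 probe sets of 22626. Every member was found, Saa1 with 2 probe sets and the others with 1 each.

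In the acute phase response, interleukin-6 acts through gp130 and STAT3, and interleukin-1 and tumour necrosis factor act through NF-kappaB, on hepatocytes, with C/EBP factors and glucocorticoid as partners. Hepatocytes then secrete serum amyloid A, which travels on high density lipoprotein, orosomucoid, which carries drugs and other small molecules, haptoglobin, which captures free haemoglobin, and lipocalin 2, which binds bacterial siderophores. The pentraxins bind damaged membranes and microbes. In the mouse serum amyloid P component is the more strongly induced pentraxin, whereas C-reactive protein has that place in humans.

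The samples were livers of male C57BL/6N mice, 12 weeks old, from which hepatocytes and a fraction labelled mesenchymal cells were profiled. Hepatocytes from mice given phenobarbital in the drinking water, at 50 mg/kg per day for 14 days, were set against hepatocytes from mice that drank tap water alone (vehicle) over the same time. Mesenchymal cells of phenobarbital-treated mice were likewise set against mesenchymal cells of vehicle mice. Each of the 4 groups had 3 arrays. The strain, sex and age were common to all groups. Phenobarbital, a sedative, switches on drug metabolism genes of hepatocytes through the nuclear receptor CAR. The sources used here do not give the number of animals behind an array or how cells were isolated, and p-values measure the spread between these arrays, which may in part be technical.

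Values are log2 expression from robust multi-array averaging (RMA), so a difference of 1 is a doubling, and the 12 arrays limit the precision. Within a group, arrays correlated at 0.989 to 0.996 over all probe sets. Cyp2b10, the classic target of phenobarbital, read 13.06, 14.15 and 12.87 in phenobarbital hepatocytes, against 7.80, 8.01 and 7.72 in vehicle hepatocytes. Its difference was 5.52 (SE 0.30, limma adjusted p = 0.00123), and all its phenobarbital arrays were above all its vehicle arrays. Some arrays stood apart. The clock output gene Dbp read 6.21 on vehicle array 1 of the hepatocytes, against 11.87 and 11.60 on the other 2, and 6.52 on vehicle array 1 of the mesenchymal cells, against 11.80 and 11.86. The mean of 8 neutrophil markers was 8.26 on mesenchymal phenobarbital array 2 and 5.91 to 6.94 on the other 5 mesenchymal arrays. Mesenchymal phenobarbital array 1 had the highest mean of 9 hepatocyte markers among mesenchymal arrays, at 10.27, against 8.28 to 9.40 on the others. The labelled cell types were checked against such markers. In the vehicle groups, mesenchymal cells minus hepatocytes had a median difference of 7.68 over 10 Kupffer cell markers, of 6.62 over 9 sinusoidal endothelial markers and of 2.68 over the 7 tested stellate cell and fibroblast markers. The mean of each of these lists lay under the 40th percentile of all probe sets on every vehicle hepatocyte array, so the 3 sizes are not ranked.

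The 5 members with the widest treatment differences in hepatocytes each held a match to the same short consensus upstream of their starts, among several searched. Their promoters are given for that reason. Each line holds the 250 bases before the RefSeq transcription start on GRCm38.p6, read toward the gene, and capitals mark a match on either strand to TTGCNNAA, letters of the C/EBP consensus. Saa1 lies at chr7:46742981-46743230 on the minus strand, Saa2 at chr7:46751583-46751832 on the plus strand, Saa3 at chr7:46715677-46715926 on the minus strand, Orm2 at chr4:63362199-63362448 on the plus strand and Lcn2 at chr2:32387740-32387989 on the minus strand.
Saa1: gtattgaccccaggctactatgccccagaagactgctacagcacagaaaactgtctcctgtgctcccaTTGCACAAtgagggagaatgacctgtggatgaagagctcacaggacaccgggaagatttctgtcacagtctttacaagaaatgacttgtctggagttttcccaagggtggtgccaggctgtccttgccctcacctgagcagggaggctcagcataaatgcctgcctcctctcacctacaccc
Saa2: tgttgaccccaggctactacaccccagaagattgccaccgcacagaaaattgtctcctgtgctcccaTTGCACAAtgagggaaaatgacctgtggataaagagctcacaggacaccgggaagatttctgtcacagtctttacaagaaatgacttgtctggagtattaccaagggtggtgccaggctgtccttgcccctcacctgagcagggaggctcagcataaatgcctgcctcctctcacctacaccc
Saa3: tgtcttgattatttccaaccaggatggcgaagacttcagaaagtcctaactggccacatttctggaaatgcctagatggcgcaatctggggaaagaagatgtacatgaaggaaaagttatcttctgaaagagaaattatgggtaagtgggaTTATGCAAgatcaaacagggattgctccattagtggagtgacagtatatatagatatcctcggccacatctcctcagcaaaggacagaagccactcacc
Orm2: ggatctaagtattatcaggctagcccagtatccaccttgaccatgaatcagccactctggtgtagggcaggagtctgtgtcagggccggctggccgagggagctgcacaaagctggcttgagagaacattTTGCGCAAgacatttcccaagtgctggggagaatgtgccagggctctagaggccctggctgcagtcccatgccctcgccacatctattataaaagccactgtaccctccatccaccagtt
Lcn2: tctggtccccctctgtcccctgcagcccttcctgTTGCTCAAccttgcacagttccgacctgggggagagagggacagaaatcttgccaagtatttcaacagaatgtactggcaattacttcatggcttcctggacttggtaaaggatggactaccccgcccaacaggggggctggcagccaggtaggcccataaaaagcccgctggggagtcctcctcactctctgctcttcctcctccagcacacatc
The match started 182 bases before the start in Saa1, 183 in Saa2, 99 in Saa3, 120 in Orm2 and 216 in Lcn2. Of the 8 members with a promoter in the RefSeq table, these 5 held 1 match each and Crp, Apcs and Itih4 held none, whereas 9.56% of all 32851 promoters held at least 1. Hp and Orm1, with hepatocyte differences of -0.31 and -0.17, had no promoter there and were not searched. Letters of the STAT consensus, TTCNNNGAA, were found in Apcs and Itih4 (7.02% of all promoters), and those of the STAT3 type II acute phase element, CTGGGA, in Crp, Apcs and Itih4 (27%). The NF-kappaB consensus was not matched in these windows in any of the 8 members (7.25% of all promoters). A match describes letters, not binding. The upstream stretches of Saa1 and Saa2, neighbouring genes, were identical at 238 of 251 aligned columns (94.8%), while Saa1 and Saa3 were identical at 52.2%. The matches of Saa1 and Saa2 are thus not independent, and a link between matches and the size of the difference was not tested. Apcs and Crp also neighbour each other, and Orm3 is the gene between Orm1 and Orm2.

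Phenobarbital hepatocytes were first set against vehicle hepatocytes, to see which acute phase genes differed after treatment. Saa2, Saa1, Lcn2 and Orm2 read far lower on 2 of the 3 phenobarbital arrays than on any vehicle array, and near the vehicle level on array 3. Over all 3 arrays the differences were -3.02 for Saa2, -2.34 for Saa1, -2.28 for Lcn2 and -1.86 for Orm2, and none passed the test. Of the 8117 genes tested, only 9 had a wider difference than Orm2 in either direction. Hp, Itih4 and Orm1 had smaller differences of -0.31, -0.30 and -0.17, and Crp was the one member with a positive difference.

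The 3 serum amyloid A genes showed the widest range of behaviour. Saa1, an apolipoprotein of acute phase high density lipoprotein, read 10.88, 10.90 and 13.85 on phenobarbital arrays 1, 2 and 3, against 14.24, 14.41 and 13.99 on the vehicle arrays. Phenobarbital arrays 1 and 2 were more than 3 log2 units below the lowest vehicle array, array 3 lay just under it, and the groups did not overlap. The difference was -2.34 (SE 0.72, 95% interval -4.02 to -0.65, limma adjusted p = 0.477). Saa2, its near copy, read 8.93, 9.34 and 12.31 with phenobarbital, against 13.02, 13.78 and 12.83 with vehicle, again without overlap. Its difference was -3.02 (SE 0.80, interval -4.89 to -1.15, adjusted p = 0.433). Saa3, which macrophages and fat tissue also make, read 8.62, 9.0 and 9.39 with phenobarbital, against 9.36, 11.21 and 9.32 with vehicle. Here the groups overlapped and vehicle array 2 alone stood high, and the difference was -0.96 (SE 0.49, adjusted p = 0.635). The second Saa1 probe set gave -2.65 (SE 0.73). Its target transcript is assigned to Saa2 in RefSeq, and the probe sets of these 2 near-identical genes may share transcripts, so their values are not independent.

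Of the orosomucoid genes, Orm2 read 9.34, 9.87 and 11.79 with phenobarbital, against 12.08, 13.20 and 11.29 with vehicle. Phenobarbital array 3 exceeded vehicle array 3, so the groups overlapped, with a difference of -1.86 (SE 0.67, adjusted p = 0.549). Orm1 read 13.64, 13.58 and 13.86 with phenobarbital, against 13.98, 13.89 and 13.73 with vehicle, a difference of -0.17 (SE 0.09, adjusted p = 0.657). The orosomucoid genes are close paralogues, and cross-hybridisation between them was not tested.

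Haptoglobin and lipocalin 2 differed in size of difference. Lcn2 read 7.15, 7.56 and 10.44 with phenobarbital, against 10.88, 11.57 and 9.53 with vehicle. The groups overlapped through array 3 of each, and the difference was -2.28 (SE 0.87, interval -4.30 to -0.25, adjusted p = 0.560). Hp read 13.86, 13.96 and 14.18 with phenobarbital, against 14.39, 14.30 and 14.22 with vehicle. All its phenobarbital arrays were below all its vehicle arrays, by a mean of -0.31 (SE 0.09, adjusted p = 0.465).

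The pentraxins and Itih4 differed less. Apcs read 11.51, 11.74 and 12.59 with phenobarbital, against 12.89, 12.47 and 12.12 with vehicle, and overlapped, at -0.55 (SE 0.29, adjusted p = 0.649). Crp read 12.92, 13.00 and 13.05 with phenobarbital, against 13.11, 12.83 and 12.73 with vehicle, and its difference of 0.10 had an interval of -0.13 to 0.34 (adjusted p = 0.804). That interval leaves out a change of the size measured for Saa1. Itih4, a protease inhibitor chain cut by plasma kallikrein, read 13.46, 13.44 and 13.65 with phenobarbital, against 13.92, 13.87 and 13.67 with vehicle. Its groups did not overlap, at -0.30 (SE 0.09, adjusted p = 0.460).

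**Figure D1:**
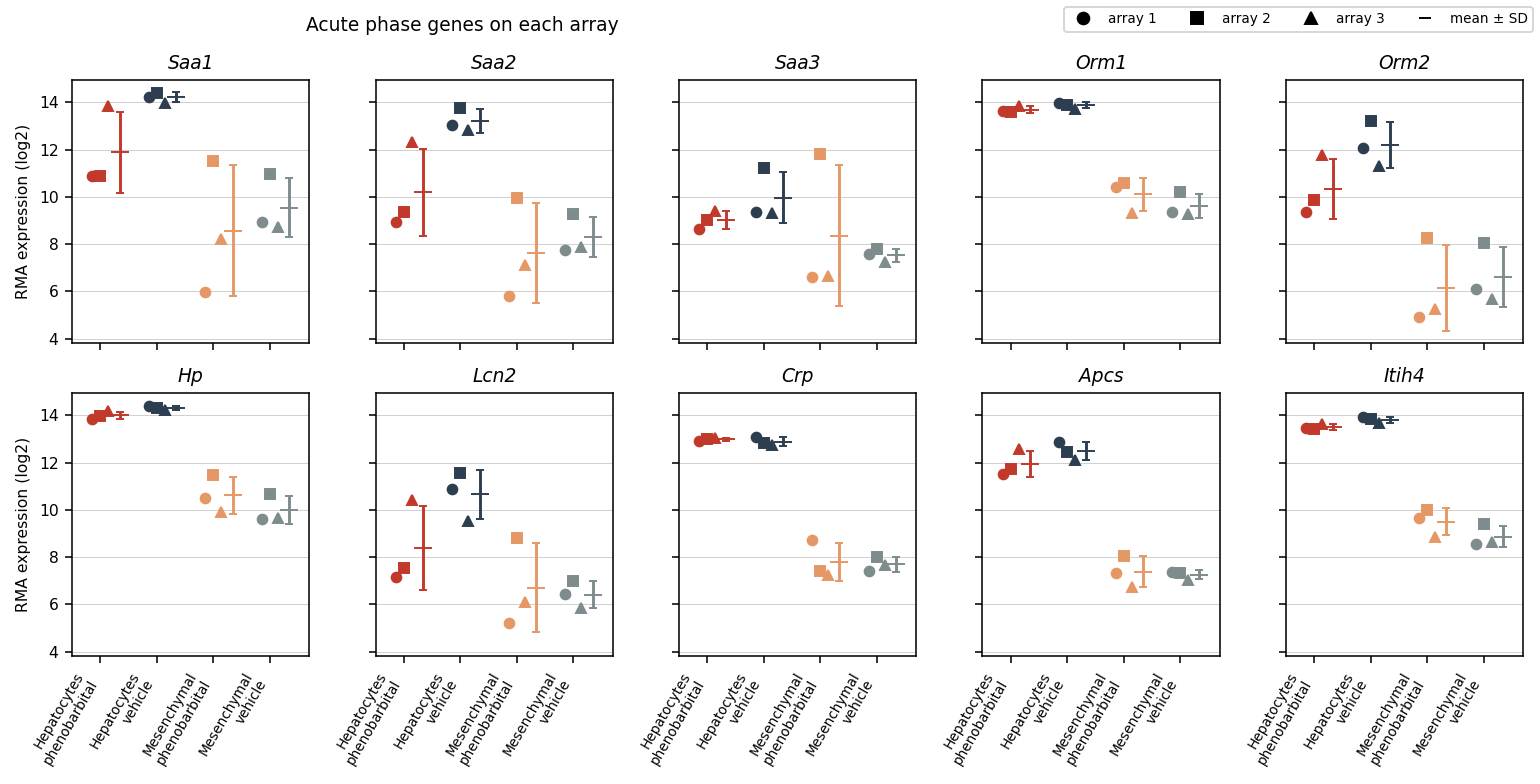
RMA expression (log2) of the 10 acute phase genes on each of the 12 arrays, with a symbol per array number and the mean ± SD of 3 arrays beside them. In hepatocytes, Saa1, Saa2, Orm2 and Lcn2 on phenobarbital array 3 sit above phenobarbital arrays 1 and 2, and Crp spans 0.131 over the 3 arrays.

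In counts, 0 of the 10 members were called at an adjusted p under 0.05, where 0.0493% of the 8117 tested genes were (4 genes, Cyp2b10 among them), and 8.38% of those genes had an unadjusted p under 0.05. The difference was negative in 9 of the 10 members, against 51% of all genes, with a median of -0.75 over the members and -0.004 over all genes. The groups did not overlap, with phenobarbital lower, in 4 of 10 members (Saa1, Saa2, Hp and Itih4), against 8.14% of all genes tested. Members that move together are not independent of each other, and such counts carry no test here.

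**Figure D2:**
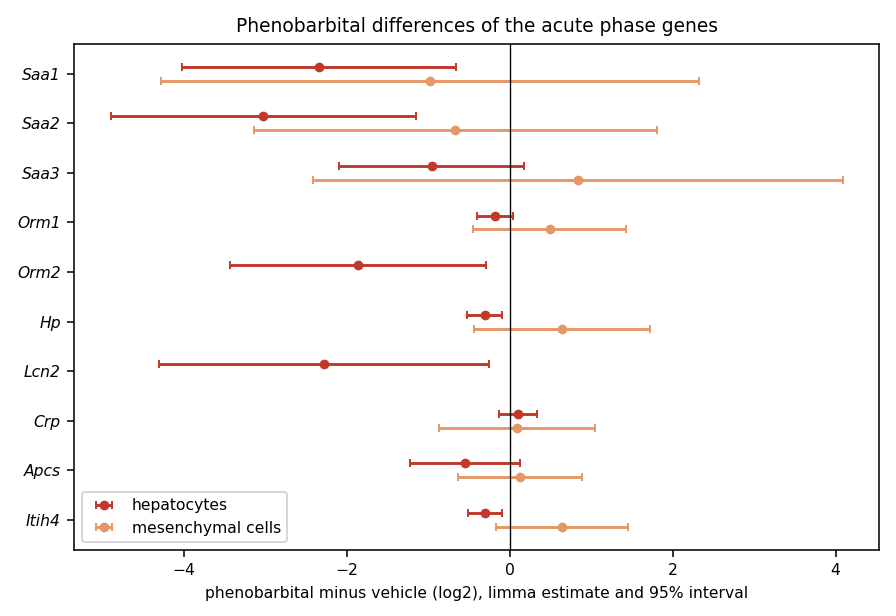
Phenobarbital minus vehicle differences (log2, limma estimate and 95% interval from 6 arrays) of each member in hepatocytes and in mesenchymal cells. Hepatocyte differences run from -3.02 (Saa2) to 0.10 (Crp), mesenchymal intervals all include 0, and Orm2 and Lcn2 have no mesenchymal estimate because they did not pass the filter on low values there.

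The members shared the array that stood highest with phenobarbital and lowest with vehicle, but not the size of the spread. Phenobarbital array 3 was the highest phenobarbital array for all 10 members, and vehicle array 3 was the lowest vehicle array for all 10. Over the 3 phenobarbital arrays, Saa2 ranged over 3.39 log2 units, Lcn2 over 3.29, Saa1 over 2.97 and Orm2 over 2.44, while the median range of the tested genes was 0.232. Only 1 tested gene had a wider range than Saa2 in that group, and 9 had a wider range than Orm2. Apcs ranged over 1.07 and Saa3 over 0.77. Hp, Orm1, Itih4 and Crp ranged over 0.321, 0.285, 0.214 and 0.131. Those ranges were exceeded by 30.4%, 37.5%, 55.0% and 77.9% of the tested genes. The mean of the 10 members was 11.03, 11.24 and 12.51 on phenobarbital arrays 1, 2 and 3, and that of the 9 hepatocyte markers was 13.38, 13.43 and 13.39. The mean of 10 Kupffer cell markers was 6.20, 6.08 and 6.67 on the phenobarbital arrays, with array 3 highest, and 6.43 to 6.50 on the vehicle arrays. The mean of 9 sinusoidal endothelial markers was likewise highest on array 3, at 6.47, 6.14 and 6.74 with phenobarbital, against 6.36 to 6.49 with vehicle. Both means lay under the 40th percentile on phenobarbital arrays 1 and 2 (6.60 and 6.56) and just above it on array 3 (6.59). Only 5 of the 10 Kupffer cell markers and 5 of the 9 endothelial markers passed the filter on low values in hepatocytes. The part of such cells in the members' hepatocyte values was not tested. Without phenobarbital array 3, Saa1 fell by 3.32 on the log2 scale (adjusted p = 0.00115) and Saa2 fell by 4.08 (adjusted p = 0.0144), and these 2 members passed the test among 5 genes in all. Lcn2 was then at -3.30 (adjusted p = 0.199) and Orm2 at -2.59 (adjusted p = 0.264). Phenobarbital array 3 stood 2.96 (Saa1) and 3.18 (Saa2) above the mean of the other 2, so leaving it out narrows the spread by construction. The calls without it are therefore no separate support. Leaving out any other single array brought no member past the threshold. Without vehicle array 1, in which the clock genes stood apart, the differences were -2.32 for Saa1, -3.11 for Saa2, -2.17 for Lcn2 and -1.92 for Orm2, close to those of all 6 arrays.

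**Figure D3:**
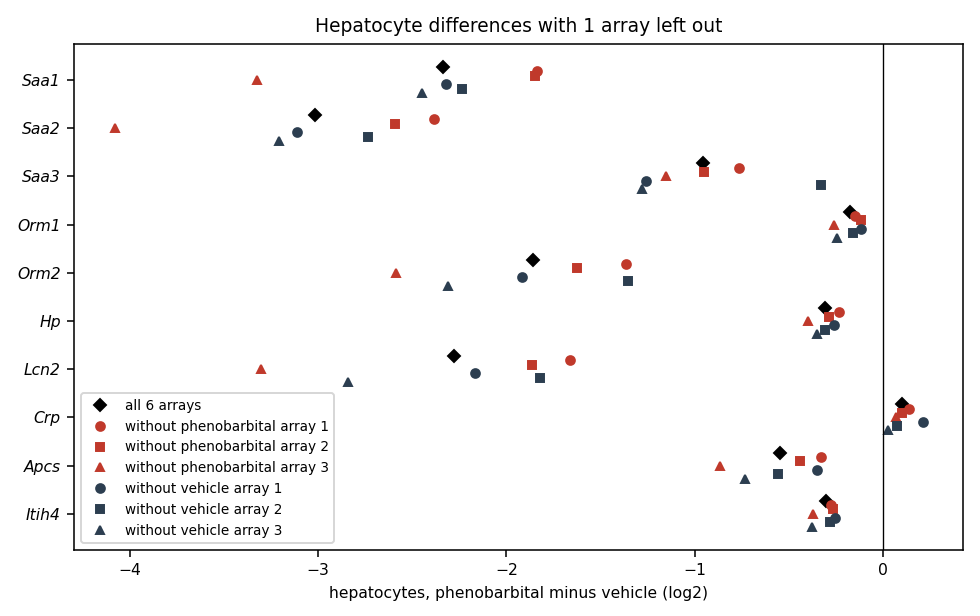
Hepatocyte phenobarbital minus vehicle difference (log2) of each member from all 6 arrays and with each array left out in turn. The red triangles, without phenobarbital array 3, lie furthest to the left for Saa1 (-3.32), Saa2 (-4.08), Orm2 and Lcn2.

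To describe which other genes shared this array pattern, each member was centred on its mean over the 6 hepatocyte arrays and the members were averaged. The averaged profile stood at -1.14, -0.94 and 0.33 on phenobarbital arrays 1, 2 and 3, against 0.61, 0.98 and 0.17 on the vehicle arrays. Lcn2 followed it most closely (Pearson r = 0.995 over 6 arrays), then Orm2, Saa2 and Saa1, whereas Crp did not (r = -0.06). The profile includes each of these genes, and the members were not scaled. Members with the widest swings therefore weigh most in it, and their high r is in part set by that. Among 202 other genes with an SD of at least 0.5 over these arrays, the 5 most alike were Ppp1r14a (r = 0.981), Wsb1 (0.974), Moxd1 (0.958), Fgl1 (0.938) and Cyb561 (0.926). Moxd1, a copper monooxygenase-like gene, read 5.93, 5.69 and 9.26 with phenobarbital, against 9.84, 10.49 and 10.12 with vehicle. It too was highest on array 3 among the phenobarbital arrays, with a difference of -3.19 (SE 0.85, adjusted p = 0.433). Fgl1, a secreted fibrinogen-like protein of hepatocytes, read 10.98, 11.29 and 12.88 with phenobarbital, against 13.14, 12.69 and 12.31 with vehicle. All r values rest on the same 6 arrays and are descriptions.

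**Figure D4:**
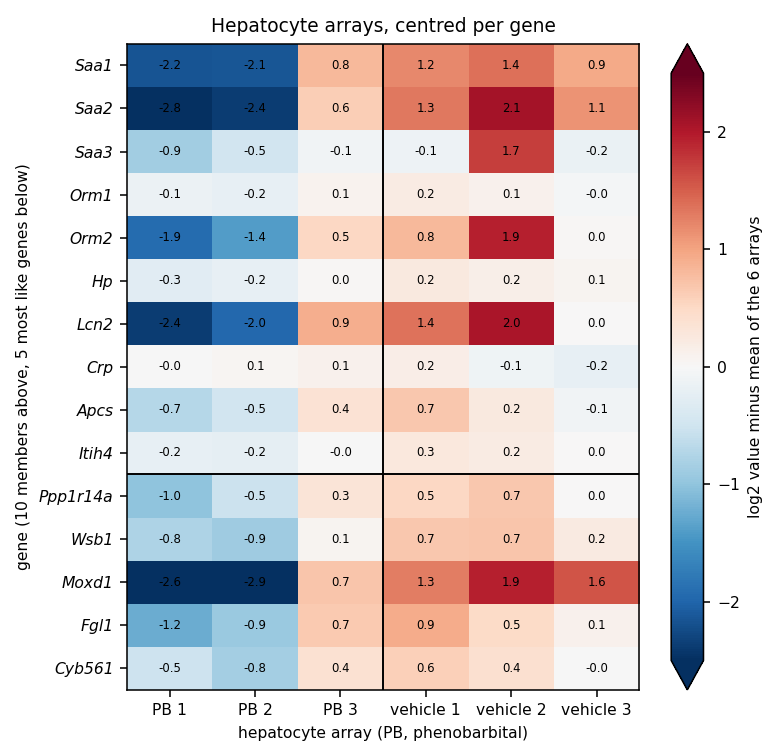
Log2 values on the 6 hepatocyte arrays, each gene centred on its mean, for the 10 members (top) and the 5 genes most like their averaged profile (bottom). Phenobarbital arrays 1 and 2 are low for Saa1, Saa2, Orm2, Lcn2 and Moxd1, and phenobarbital array 3 resembles the vehicle arrays.

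The wider acute phase lists showed smaller differences in hepatocytes, and 0 of their genes passed the test, where 0.0493% of all tested genes did. Among other positive acute phase genes, 16 of the 18 tested were negative, with a median of -0.155, against 51% of all tested genes, and 5 were lower without overlap, against 8.14%. Those with the widest difference were Fgl1 at -1.0 (SE 0.46), the leucine-rich glycoprotein gene Lrg1 at -0.66 (SE 0.30) and Lbp, which binds bacterial lipopolysaccharide, at -0.65 (SE 0.19). Of 6 negative acute phase genes, whose plasma proteins decline in inflammation, 3 were negative and 3 positive. Serpina6, the corticosteroid-binding globulin, read 11.79, 12.25 and 11.67 with phenobarbital, against 10.53, 11.57 and 11.44 with vehicle, the widest of this list at 0.73 (SE 0.28, adjusted p = 0.560).

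The signalling genes upstream of the members were measured on the same arrays. In the interleukin-6 and STAT3 list, 8 of 11 tested genes were negative, against 51% of all tested genes. Of these 11, 0 were called, where 0.0493% of all tested genes were. Socs3, a STAT3 target that feeds back on the receptor, read 7.53, 6.58 and 6.84 with phenobarbital, against 9.61, 8.07 and 6.60 with vehicle. Vehicle array 3 lay within the phenobarbital values, and the difference was -1.11 (SE 0.67, adjusted p = 0.684). Stat3 itself differed by -0.29 (SE 0.12) and Pias3, an inhibitor of STAT3, by 0.31 (SE 0.09). In the interleukin-1, tumour necrosis factor and NF-kappaB list, 7 of 13 were negative, near the 51% of all tested genes. The interleukin-1 receptor gene Il1r1 read 8.74, 8.49 and 9.02 with phenobarbital, against 9.49, 9.37 and 9.23 with vehicle, a difference of -0.61 (SE 0.14, adjusted p = 0.391). Among the 5 tested C/EBP and hepatocyte factor genes, Onecut1 read 8.55, 8.12 and 8.0 with phenobarbital, against 9.47, 9.60 and 9.08 with vehicle. Its difference was -1.16 (SE 0.18, adjusted p = 0.149), and unlike in Saa1, its phenobarbital array 3 was the lowest of the 3. Cebpa differed by 0.27 (SE 0.10). The glucocorticoid target Sgk1 differed by 0.54 (SE 0.23), and 0 of 5 genes of the glucocorticoid list were called.

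In mesenchymal cells, phenobarbital and vehicle arrays overlapped for every member, and phenobarbital array 2 stood 3.14 to 5.17 log2 units above the mean of the other 2 phenobarbital arrays for Saa1, Saa2, Saa3, Orm2 and Lcn2. In a bulk fraction, fewer hepatocytes or other cells of a type and less RNA per cell cannot be told apart. Saa1 read 5.98, 11.50 and 8.22 on the phenobarbital arrays, against 8.94, 10.97 and 8.71 on the vehicle arrays. Saa2 read 5.82, 9.94 and 7.13 with phenobarbital, against 7.73, 9.28 and 7.88 with vehicle. Array 2 was the highest in each group for both genes. Saa3 read 6.61, 11.80 and 6.65 with phenobarbital, against 7.56, 7.77 and 7.22 with vehicle. Its phenobarbital array 2 was above every hepatocyte array, the highest of which read 11.21. The Saa1 range of 5.51 over the phenobarbital arrays was wider than that of any other of the 8003 tested genes, whose median was 0.204. Its lowest value, 5.98 on phenobarbital array 1, lay under the 40th percentile of that array (6.68). The size and rank of that range thus rest in part on a low value.

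Lcn2 read 5.22, 8.81 and 6.11 with phenobarbital, against 6.42, 6.97 and 5.84 with vehicle, and Orm2 read 4.93, 8.24 and 5.27 with phenobarbital, against 6.11, 8.03 and 5.67 with vehicle. These 2 genes did not pass the filter on low values in mesenchymal cells and were not tested there. Hp read 10.52, 11.46 and 9.91 with phenobarbital, against 9.64, 10.67 and 9.65 with vehicle. Crp alone was highest on phenobarbital array 1, at 8.73, against 7.42 and 7.23 on phenobarbital arrays 2 and 3, and 7.40, 8.02 and 7.67 with vehicle. Array 2 was also the highest phenobarbital array for Orm1, Apcs and Itih4, but array 1 was close to it for Orm1 and Itih4. On phenobarbital arrays 1, 2 and 3, Orm1 read 10.42, 10.58 and 9.31, Itih4 9.68, 9.98 and 8.86, and Apcs 7.35, 8.06 and 6.74. Array 3 was the lowest phenobarbital array for Orm1, Hp, Crp, Apcs and Itih4, and array 1 for Saa1, Saa2, Saa3, Orm2 and Lcn2.

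Of the 8 members tested, 0 were called (0% of 8003 genes were, by limma, and 2.9% had an unadjusted p under 0.05). None of the 10 was free of overlap between the groups, against 7.7% of genes. Differences ran from -0.97 for Saa1 (SE 1.37) to 0.83 for Saa3 (SE 1.35), each with adjusted p = 0.998, and 2 of 8 were negative, against 48.2% of genes. For 5 of the 8 members, Saa1, Saa2, Saa3, Apcs and Crp, leaving out 1 array turned the direction, while Hp, Itih4 and Orm1 stayed positive. Without phenobarbital array 1 the differences were 0.32 for Saa1 and 0.24 for Saa2, and without phenobarbital array 2 that of Saa3 was -0.89. Of the other positive acute phase genes, 0 of 18 tested were called in mesenchymal cells and 15 were positive (median 0.16), with Hamp, the iron hormone hepcidin, widest at 1.30 (SE 0.60). Hepatocyte markers leaned the same way, with 7 of 8 positive (median 0.48), as did negative acute phase genes, with 5 of 5 positive (median 0.38).

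Among the phenobarbital arrays the members and the hepatocyte markers peaked on different arrays. Array 2 was the highest phenobarbital array for 9 of 10 members, and vehicle array 2 likewise for 9 of 10. The mean of the hepatocyte markers, by contrast, was 10.27, 9.03 and 8.68 on phenobarbital arrays 1, 2 and 3, so that array 1 led, and 8.28, 9.40 and 9.19 on the vehicle arrays, where array 2 led. On the linear scale, as a percent of the mean of the vehicle hepatocyte arrays, the median member stood at 4.16%, 10.1% and 2.59% on phenobarbital arrays 1, 2 and 3, and at 2.71%, 6.47% and 2.73% on the vehicle arrays. As a percent of the hepatocyte arrays of the same treatment, which read lower with phenobarbital for most members, the median member stood at 5.86%, 17.5% and 4.80% on the phenobarbital arrays. The median hepatocyte marker, against the same treatment, stood at 11%, 4.03% and 3.14% with phenobarbital, and at 2.13%, 5.38% and 4.91% with vehicle. The mean of the 8 neutrophil markers was highest on phenobarbital array 2, at 8.26. It was 5.91 and 6.25 on phenobarbital arrays 1 and 3, and 6.94, 6.38 and 6.10 with vehicle. Only 2 of the 8 markers passed the filter on low values in mesenchymal cells. S100a8, a calcium-binding protein abundant in neutrophils, read 7.01, 11.07 and 7.51 with phenobarbital, against 9.53, 8.08 and 7.20 with vehicle. The mean of 3 monocyte markers was 8.15, 9.55 and 8.55 with phenobarbital, against 9.66, 8.44 and 8.08 with vehicle. The mean of the Kupffer cell markers was 13.65, 14.12 and 13.72 with phenobarbital, against 13.97, 13.93 and 13.78 with vehicle. The part of these cells in the members' values was not tested.

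**Figure D5:**
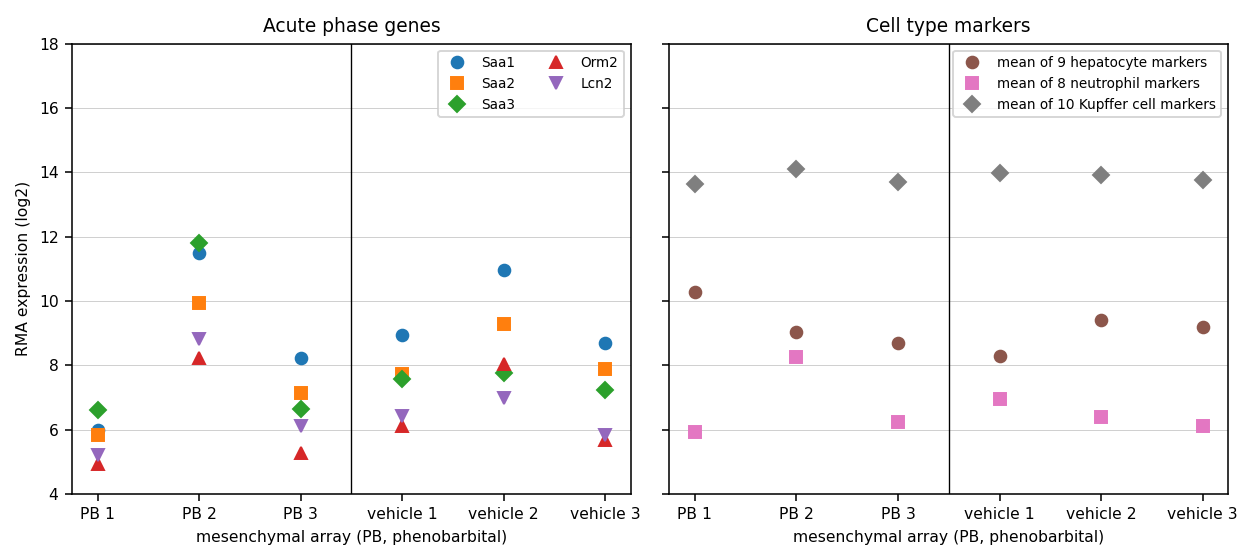
RMA expression (log2) on the 6 mesenchymal arrays of the 5 members with the widest hepatocyte differences (left) and of the mean of hepatocyte, neutrophil and Kupffer cell markers (right). Phenobarbital array 2 is the highest phenobarbital array for all 5 genes and for the neutrophil markers (8.26), and phenobarbital array 1 is the highest for the hepatocyte markers (10.27).

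The treatment effect in hepatocytes minus that in mesenchymal cells was tested across 9031 genes on all 12 arrays. Of the 10 members, 0 were called (0% of all genes, with 5.45% at an unadjusted p under 0.05), and 9 were negative, against 52.8% of all genes. That direction was not particular to the members. It was also negative in 8 of 9 hepatocyte markers, in 6 of 6 negative acute phase genes and in 17 of 19 other positive acute phase genes. The estimates ran from -2.58 for Lcn2 (SE 1.40, adjusted p = 0.917) to 0.01 for Crp (SE 0.45, adjusted p = 0.999), which was -0.022 with quantile normalization. Lcn2 and Orm2 did not pass the filter on low values in mesenchymal cells alone. Both lay under the percentile of that filter on most mesenchymal arrays, so the size of their estimates rests in part on low values. Such values on mesenchymal phenobarbital arrays also enter the estimates of Saa1, Saa2 and Saa3. Itih4 had the smallest unadjusted p of the members, 0.0294, with a difference of -0.95 (SE 0.38, adjusted p = 0.888). A difference between the cell fractions in the response of these genes was therefore not shown, and the intervals were wide, from -5.14 to 2.41 for Saa1.

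Mesenchymal cells were last set against hepatocytes within each treatment. With vehicle, 9 of 10 members fell, with log2 differences from -5.59 (Orm2) to -4.24 (Lcn2), against 40.7% of the 9031 tested genes called lower. Orm2 and Lcn2 lay under the 40th percentile on 2 of the 3 mesenchymal vehicle arrays, and with that percentile as the level there they were lower by at least 5.08 and at least 3.90 on the log2 scale. Mesenchymal arrays lay below hepatocyte arrays for all 10 members without overlap, against 41.6% of genes. Itih4 averaged 8.87 ± 0.45 in mesenchymal cells and 13.82 ± 0.13 in hepatocytes (SD, n = 3 each), a limma difference of -4.95 (SE 0.27, adjusted p = 9.07e-09). Crp averaged 7.70 ± 0.31 in mesenchymal cells and 12.89 ± 0.19 in hepatocytes, at -5.19 (SE 0.32, adjusted p = 2.48e-08). Saa3 differed by -2.44 (SE 1.11, adjusted p = 0.0604) and passed with the replicate number as a block (adjusted p = 0.0474) or with the 6 vehicle arrays alone (adjusted p = 0.00304). This block rests on the correlation of arrays of the same number, not on the labels. Between the fractions r was 0.197, 0.175 and 0.149 for the vehicle arrays. It was 0.06, -0.03 and 0.01 for the phenobarbital arrays, which the block also pairs.

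With phenobarbital, 8 of 10 members fell in mesenchymal cells relative to hepatocytes, against 40.9% of all tested genes called lower. The groups did not overlap in 6 of 10, against 42.2%. The difference was -5.20 for Crp (SE 0.32), -4.56 for Apcs (SE 0.34), -4.18 for Orm2 (SE 0.95) and -4.01 for Itih4 (SE 0.27). Mesenchymal values under the 40th percentile also enter the differences of Orm2, Lcn2 and Saa3 (2 of 3 arrays) and of Saa1 and Saa2 (1 of 3), which gives at least 3.14 lower for Orm2. Saa1 averaged 8.57 ± 2.77 in mesenchymal cells and 11.88 ± 1.71 in hepatocytes (SD, n = 3 each), and overlapped, at -3.31 (SE 1.21, adjusted p = 0.0243). Saa2 stood at -2.56 (SE 1.03, adjusted p = 0.0372). These 2 calls were lost with the 6 phenobarbital arrays alone (adjusted p = 0.0602 and 0.0844), without hepatocyte phenobarbital array 3 (0.110 and 0.173), without mesenchymal phenobarbital array 1 (0.106 and 0.154) and without mesenchymal phenobarbital array 3 (0.0609 and 0.0960). The call of Saa2 was also lost without both vehicle arrays 1 (adjusted p = 0.0547). Lcn2 at -1.67 (SE 0.99, adjusted p = 0.137) and Saa3 at -0.65 (SE 1.11, adjusted p = 0.595) did not pass, and both did without mesenchymal phenobarbital array 2, at -2.72 (adjusted p = 0.0166) and -2.37 (adjusted p = 0.00106). In the order of the group means, both hepatocyte groups stood above both mesenchymal groups for all 10 members, with vehicle hepatocytes on top for 9 and phenobarbital hepatocytes on top for Crp. Neighbours in that order within a cell fraction did not differ past the threshold for any member tested.

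Receptors that take up or sense the members were measured too. All 9 tested were higher in mesenchymal cells than in hepatocytes with vehicle (42% of all genes were called higher). Only 3 of the 9 passed the filter on low values in the hepatocyte arrays alone, whereas all 9 passed in the mesenchymal arrays alone. The others entered the test through mesenchymal arrays, where they are high, so the count of 9 was in part set by the filter. Cd163, the macrophage receptor of haptoglobin and haemoglobin complexes, averaged 12.90 ± 0.13 in mesenchymal cells and 4.36 ± 0.17 in hepatocytes (SD, n = 3 each). All hepatocyte vehicle arrays lay under the 40th percentile for it, and with that percentile as the hepatocyte level it was at least 6.34 higher on the log2 scale. In the same way Fpr2, a formyl peptide receptor that serum amyloid A can engage, was higher by at least 4.79, and the Fc receptor gene Fcgr3, whose product binds pentraxins, by at least 6.07. With phenobarbital against vehicle in mesenchymal cells, 0 of the 9 receptor genes were called, as were 0% of the 8003 tested genes, and differences ran from -0.22 to 0.17. In the interleukin-6 list 9 of 12 tested genes were called higher and 1 lower in vehicle mesenchymal cells than in vehicle hepatocytes. Of all tested genes, 42% were called higher and 40.7% lower.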

How the data were processed

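Gene expression in hepatocytes and mesenchymal cells was measured on 12 Affymetrix 3' expression arrays, 3 in each of 4 groups taken from the sample titles. The deposited values are log2 expression values per probe set, which the authors made with RMA, per the submitters' processing notes; they ran from 2.79 to 15.2. The authors' annotation build and software version were not given in the sources used here. Gene symbols came from the platform annotation: 20380 probe sets had 1 symbol, 691 had several and 1555 had none, and only the first kind was used. All 10 member symbols matched RefSeq by gene identifier, and promoters were taken from RefSeq (GRCm38.p6) for 8 of the 10.

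Each gene was given by its probe set of highest mean over the 12 arrays. Genes that exceeded the 40th percentile of all probe sets on 3 or more arrays of a comparison were tested with limma 3.58.1 in R 4.3.3 (lmFit, eBayes with an intensity trend), and p-values were adjusted by Benjamini-Hochberg over all genes tested, with calls at 0.05. The treatment comparisons used the 6 arrays of a cell fraction, and the other 3 used all 12. The procedure was tested on simulated data. No arrays held identical values.

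The members and gene lists were chosen with earlier results of these data known. All members are named; of each wider list, up to 4 genes that passed or, if none did, up to 3 with the widest difference; and the 5 genes most like the members. Within the vehicle groups, arrays of the same number deviated together in both fractions (r = 0.197, 0.175 and 0.149 over all genes). The pairing by number used in the replicate block was taken from this correlation, and the labels do not state one. In the hepatocyte treatment comparison the block paired phenobarbital with vehicle arrays, which that correlation does not cover. Between hepatocyte phenobarbital and vehicle arrays of the same number, r was -0.036, -0.035 and -0.071. Alternatives were the low-value filter, the scaling, the probe set rule, the variance model, the replicate block, the arrays in the fit and leaving out each array.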

Additional observations from a re-analysis of the deposited data

How the results depend on the processing

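In hepatocytes, 4 genes were called for phenobarbital against vehicle; 8 were called with each probe set as its own feature, 1 with all 12 arrays in 1 fit, and 1 to 5 with 1 array left out. With 1 array left out, 0 to 2 members were called, the 2 being Saa1 and Saa2 without phenobarbital array 3, and no other alternative called a member. For the difference between the effects, 0 genes were called, and 0 to 1 with 1 array left out. Mesenchymal cells against hepatocytes gave 7470 calls with vehicle and 7503 with phenobarbital, 12680 and 12736 with each probe set as its own feature, and 5918 and 5876 with the filter at the 60th percentile.

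Some members with no call changed sign. In mesenchymal cells, phenobarbital minus vehicle was 0.32 for Saa1, 0.24 for Saa2 and -0.37 for Crp without phenobarbital array 1, -0.89 for Saa3 and -0.21 for Apcs without phenobarbital array 2, and -0.06 for Crp without vehicle array 1. With 1 array left out, Saa1 ranged from -2.44 to 0.32, Saa2 from -1.82 to 0.24, Saa3 from -0.89 to 1.71, Apcs from -0.21 to 0.45 and Crp from -0.37 to 0.37. The hepatocyte minus mesenchymal effect of Crp was -0.022 with quantile normalization and ranged from -0.27 to 0.48 with 1 array left out, and that of Saa1 from -2.65 to 0.10. With phenobarbital, Saa3 in mesenchymal cells minus hepatocytes ranged from -2.37 to 0.22. The cause was not tested.

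Saa3 with vehicle also passed with each array centred on its median (adjusted p = 0.0421), and over all alternatives its adjusted p ran from 0.000377 to 0.195. The replicate block left 0 hepatocyte members called and 4 genes, and changed no other member's call. Outside the vehicle groups, arrays of the same number did not all deviate together (r from -0.28 to 0.14). The hepatocyte result with the block thus rests on a pairing of phenobarbital with vehicle arrays that these correlations do not back. Every hepatocyte member kept its sign under all alternatives run. Having 3 arrays a group and the spread of Saa1, Saa2, Orm2 and Lcn2 over arrays limit what can be called.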
